A study of Mus musculus with 6 samples.

Results

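The genes described here encode RNA polymerase I, its initiation factors and the nucleolar proteins that process, modify and assemble ribosomal RNA. They were chosen by name, as 35 exact gene symbols of nucleolar and RNA polymerase I genes often counted among MYC-driven growth genes, and the rule uses no measured value. All 35 were found among the 38926 genes of the deposited count tables, and all 35 passed the filter on low counts that left 13646 genes for testing. The study measured RNA by sequencing in hematopoietic stem cells (HSCs) of mouse fetal liver at E14.5, a midgestation stage, sorted by flow cytometry on HSC surface markers that the labels do not name. It compared 2 genotypes with 3 samples each, and 3 litters each gave 1 sample of either genotype. Control embryos were Vav-Cre; Dpy30F/+ and knockout embryos were Vav-Cre; Dpy30F/-. Both genotypes thus carried the Vav-Cre transgene, which expresses Cre recombinase in blood-forming cells, and both had 1 floxed Dpy30 allele (F). The other allele was intact in controls and null in knockouts, so that controls are heterozygous wherever Cre had acted. Whether a sample held cells of 1 embryo or a pool is not given in the sources used here.

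Ribosomes are built in the nucleolus, where RNA polymerase I copies the ribosomal DNA repeats into a long precursor RNA. Small nucleolar ribonucleoproteins (snoRNPs) of the box C/D and box H/ACA classes modify that precursor by methylation and pseudouridylation, and separate sets of assembly factors fold, cut and package it into the small and the large subunit. Many of these genes are known MYC targets, and blood stem cells are known to be sensitive to how much protein they make. The protein made from Dpy30 belongs to the core of the SET1/MLL enzymes, which place methyl groups on histone H3 lysine 4 at CpG-rich promoters.

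The promoters of 4 members are printed as examples, which need not be typical of the members. Each is the 250 bases before the annotated start site in the RefSeq table (build GRCm38.p6, all 4 on the plus strand), 5′ to 3′. Nolc1 (chr19:46075597-46075846) and Dkc1 (chrX:75095604-75095853) encode a chaperone and the catalytic subunit of the H/ACA snoRNPs, the role with the lowest median fold change of the 6. In these 2 the capitals mark every CG dinucleotide, the site of CpG methylation, of which the Nolc1 stretch holds 14 and the Dkc1 stretch 5.
Nolc1: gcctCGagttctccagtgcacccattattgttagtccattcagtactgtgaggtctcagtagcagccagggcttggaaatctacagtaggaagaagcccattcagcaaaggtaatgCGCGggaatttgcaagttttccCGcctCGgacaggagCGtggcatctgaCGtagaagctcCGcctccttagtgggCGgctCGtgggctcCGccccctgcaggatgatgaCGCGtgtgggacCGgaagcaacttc
Dkc1: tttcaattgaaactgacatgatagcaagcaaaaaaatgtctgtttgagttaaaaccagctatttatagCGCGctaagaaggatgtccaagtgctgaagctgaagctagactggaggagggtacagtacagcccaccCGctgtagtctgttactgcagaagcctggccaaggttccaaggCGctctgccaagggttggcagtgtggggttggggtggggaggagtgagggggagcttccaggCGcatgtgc
Rrn3 (chr16:13780449-13780698) and Nop2 (chr6:125131633-125131882) encode the polymerase I initiation factor and a methyltransferase of the large subunit. In these 2 the capitals mark CACGTG, the E-box sequence that MYC with its partner MAX is known to bind, which occurs 2 times in the Rrn3 stretch and 1 time in the Nop2 stretch. Only 5 of the 30 members with a promoter window hold it, as given below.
Rrn3: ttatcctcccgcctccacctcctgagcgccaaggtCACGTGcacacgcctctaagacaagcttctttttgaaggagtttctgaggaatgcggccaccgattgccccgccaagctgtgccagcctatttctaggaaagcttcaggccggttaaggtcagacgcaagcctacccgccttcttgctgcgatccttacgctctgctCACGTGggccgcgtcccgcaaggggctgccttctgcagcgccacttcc
Nop2: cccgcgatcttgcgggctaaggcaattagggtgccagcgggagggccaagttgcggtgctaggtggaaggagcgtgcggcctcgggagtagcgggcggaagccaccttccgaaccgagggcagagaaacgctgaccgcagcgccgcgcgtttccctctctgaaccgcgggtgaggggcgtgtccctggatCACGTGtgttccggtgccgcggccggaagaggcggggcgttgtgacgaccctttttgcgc

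Counts assigned to genes, in units of 1000000, ran from 31.9 to 43.4 per sample. Mitochondrial ribosomal RNA took 49.7 to 61.7% of them in controls and 45.2 to 50.5% in knockouts. Levels are given as counts scaled to 1000000 per library with TMM factors (CPM), and fold changes as log2 of knockout over control with a standard error (SE) from edgeR. Dpy30 itself had 24.6, 24.2 and 31.6 CPM in controls 1 to 3 and 7.93, 5.95 and 13.7 CPM in the knockouts of the same litters. All 3 knockouts lay below all 3 controls, with a log2 fold change of -1.55 (SE 0.46) and an adjusted p of 0.672 in edgeR. Knockouts 2 and 3 stood apart from the other libraries. The correlation of log2 CPM with the others was 0.720 to 0.791 for knockout 2 and 0.720 to 0.758 for knockout 3, against 0.856 to 0.880 between controls. Over the 15 HSC and primitive progenitor markers listed, summed CPM was 718 to 756 in controls, 919 in knockout 1, 1052 in knockout 2 and 325 in knockout 3. The HSC transcription factor Hlf was at 157 to 177 CPM in controls and at 146, 230 and 27.2 CPM in knockouts 1 to 3. Gata2, another transcription factor of that list, was at 30.1 to 32.0 CPM in controls and at 35.9, 74.7 and 45.3 CPM in knockouts. Ly6a, which encodes the surface marker Sca-1, was at 0 to 1.71 CPM in controls and 0.343 to 7.44 CPM in knockouts. Of the markers of other cells, the 9 endothelial and stromal genes summed to 1083 to 1726 CPM in controls, 1567 in knockout 1, 155 in knockout 2 and 1628 in knockout 3, with Dlk1 at 0 in all 6. The 11 macrophage genes in the files summed to 361 to 594 CPM in controls, 863 in knockout 1, 361 in knockout 2 and 1738 in knockout 3. Of these 11, 8, 6 and 10 were above all controls in knockouts 1, 2 and 3 (background 29.1, 29.7 and 32.7% of all genes tested). In all knockouts 5 were above all controls (background 6.39%). Without Mrc1 and Vcam1, chosen after their low values in knockout 2 were seen, the other 9 summed to 159 to 186 CPM in controls and to 503, 332 and 1334 CPM in knockouts 1 to 3. The 11 erythroid genes in the files summed to 1390 to 2495 CPM in controls and 1062 to 3023 CPM in knockouts, with the highest value in knockout 3. Among them the globin gene Hbb-bs was at 221 to 581 CPM in controls and 1249 CPM in knockout 3. Tfrc went the other way, at 332 to 381 CPM in controls and 96.6 to 147 CPM in knockouts. Granulocyte genes summed to 59.5 to 124 CPM in controls and 69.6 to 403 CPM in knockouts, megakaryocyte genes to 80.9 to 142 and 53.8 to 119 CPM, and hepatocyte genes to 5.56 to 21.9 and 3.39 to 7.88 CPM. Mast cell, B cell, and T or NK cell genes each summed to under 20 CPM in every sample, with Cma1, Fcer1a, Pax5, Cd3e, Cd3d and Cd3g at 0 in all 6. The part of this mixture of cells in the results below was not tested.

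**Figure D1:**
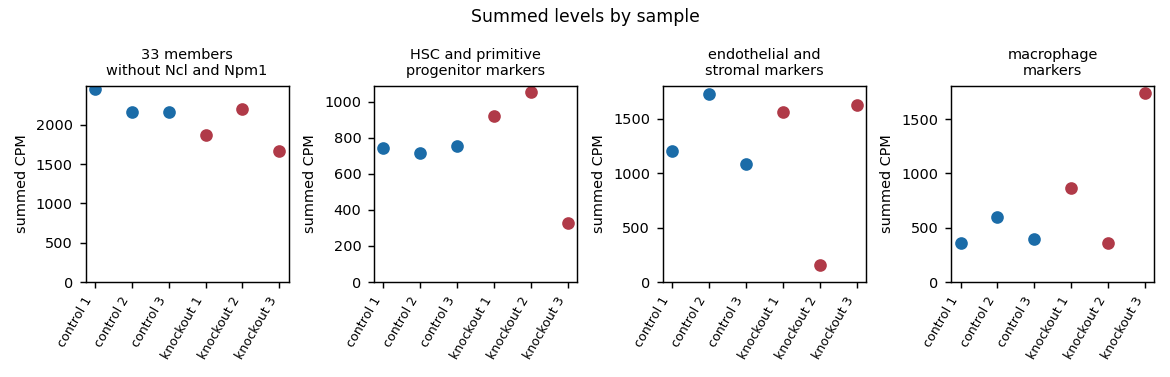
Summed CPM in each of the 6 samples for the 33 members other than Ncl and Npm1 and for 3 lists of cell type markers, controls in blue and knockouts in red; all axes start at 0. Knockout 3 has the lowest sum of members (1664) and of HSC markers (325) and the highest of macrophage markers (1738), and knockout 2 has the lowest sum of endothelial and stromal markers (155).

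Most of the ribosome biogenesis genes were slightly lower in knockout cells than in controls, except when counts were scaled by library size alone, where 18 of 35 were higher, and none passed the main test across all genes. Of the 35 members, 25 had a negative log2 fold change (71.4%, against 49.2% of all genes tested) and 10 a positive one. Their median was -0.22, against 0.01 over all genes tested, and single members ranged from -1.50 (Gnl3) to 0.64 (Polr1c). In bulk RNA, fewer cells of a type and less of an RNA per cell cannot be told apart. The median was -0.07 without knockout 3 and 0.0074 when counts were scaled by library size alone, which raised the median of all genes by 0.21.

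No member passed an adjusted p of 0.05 in edgeR, where the background was 0% (0 of 13646 genes) and the smallest adjusted p among members was 0.622. At an unadjusted p under 0.05, 4 members were lower (11.4%, background 2.24%) and 0 were higher (background 4.26%), where 6.51% of all genes passed in either direction. These 4 were Gnl3, Nolc1, Npm1 and Ncl. DESeq2 on the same counts called 1 member, Gnl3, as lower, where its background was 0.254% lower calls and 1.03% calls in either direction, 138 of 13390 genes. In 7 members, or 20%, every knockout lay below every control, against 7.74% of all genes tested: Gnl3, Nolc1, Dkc1, Npm1, Ncl, Nop58 and Wdr43. No member had every knockout above every control (background 6.39%). That order already makes these 7 lower in each litter, and no other member was lower in all 3 litters (20%, background 15.9%). Wdr12 was the only one higher in all 3 (background 12.3%). With 3 samples against 3, an exact permutation test of 1 gene cannot give a two-sided p below 0.1.

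**Figure D2:**
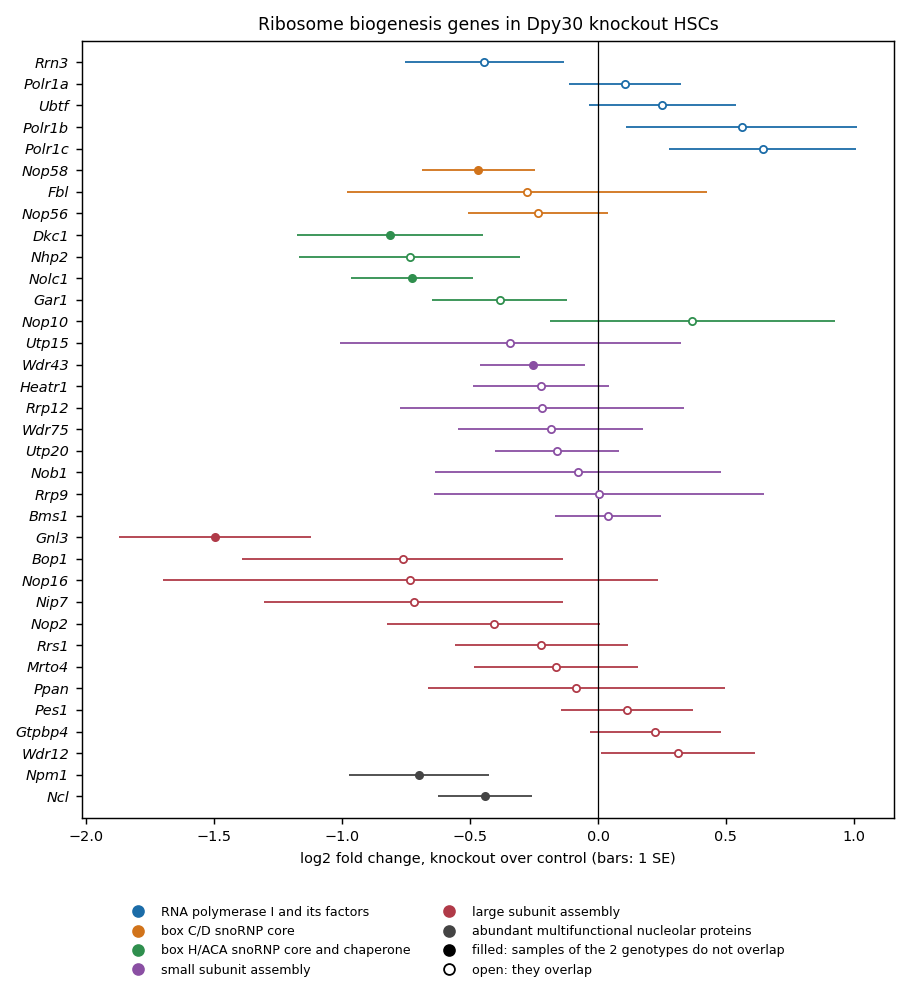
Log2 fold change of each of the 35 members, knockout over control, with bars of 1 SE, grouped and coloured by role; filled points mark members in which all 3 knockouts lay below all 3 controls. Most points lie left of 0, the lowest being Gnl3 (-1.50), and 4 of the 5 RNA polymerase I genes lie right of it.

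**Figure D3:**
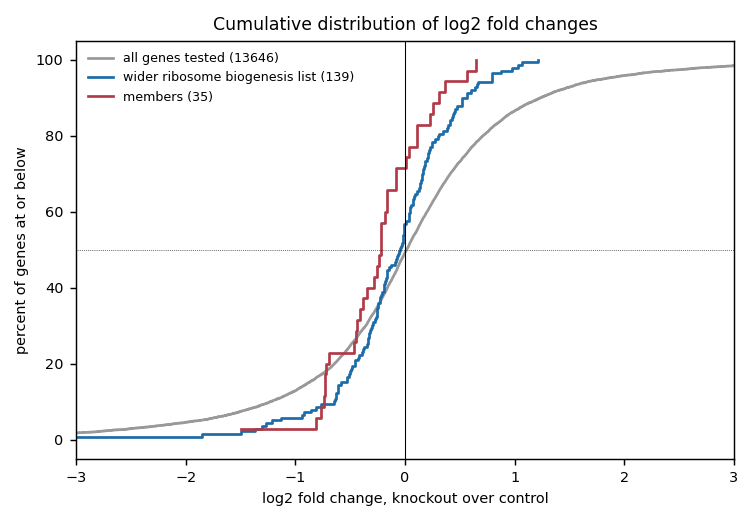
Cumulative share of genes (vertical axis, percent) at or below a log2 fold change (horizontal axis) for the 35 members, the 139 genes of a wider ribosome biogenesis list and all 13646 genes tested. The curve of the members crosses 50% at -0.22, that of the wider list at -0.04 and that of all genes at 0.01.

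RNA polymerase I and its factors, which make the ribosomal RNA precursor, were the only role with a positive median (0.25), and 4 of the 5 genes had positive log2 fold changes. The groups overlapped in all 5, none reached an unadjusted p under 0.05, and the difference between roles was not tested. When counts were scaled by library size alone, the small and the large subunit roles had positive medians too (0.04 and 0.02). The polymerase I median was then 0.42 and that of all genes 0.23. Without knockout 3 the polymerase I median was 0.074 and that of the small subunit role 0.091, and with sample quality weights in limma-voom the former was 0.065. Polr1c, a subunit shared by RNA polymerases I and III, stood at 30.4, 39.8 and 23.1 CPM in controls 1 to 3 and at 43.6, 34.8 and 67.5 CPM in knockouts 1 to 3. Knockouts 1 and 3 were above every control and knockout 2 was within their range. edgeR put its log2 fold change at 0.64 (SE 0.37, adjusted p = 0.814), and at 0.34 without knockout 3. Rrn3, which recruits the polymerase to the ribosomal DNA promoter, was the only gene of the role with a negative value. It stood at 80.9, 62.3 and 62.4 CPM in controls and at 51.5, 65.7 and 33.9 CPM in knockouts. Its log2 fold change was -0.44 (SE 0.31, adjusted p = 0.863), or -0.68 without knockout 2 and -0.21 without knockout 3. Knockout 2 was just above the middle control and within their range. Ubtf, an architectural factor that binds along ribosomal DNA, was at 87.4, 96.7 and 78.8 CPM in controls and 71.4, 99.96 and 142 CPM in knockouts. The knockouts lay on both sides of the controls, and its log2 fold change of 0.25 (SE 0.29) became -0.021 without knockout 3. The 2 largest catalytic subunits, Polr1a and Polr1b, had log2 fold changes of 0.11 (SE 0.22) and 0.56 (SE 0.45). Polr1b ranged from 17.5 CPM in knockout 3 to 56.9 CPM in knockout 1, against 25.2 to 31.7 CPM in controls.

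The box C/D snoRNP core, which guides methylation of ribosomal RNA, had 3 of 3 members with negative log2 fold changes (median -0.28), or 2 of 3 when counts were scaled by library size alone or control 1 was left out. With 1 sample left out the median ran from -0.49 (without control 3) to -0.19 (without control 1). Nop58, a scaffold protein of the particle (chr1:59684971-59719044, plus strand, GRCm38), stood at 272, 213 and 203 CPM in controls and at 178, 182 and 138 CPM in knockouts. Every knockout was below every control, and the log2 fold change was -0.47 (SE 0.22, adjusted p = 0.775). Nop56, its partner scaffold, was at 104, 98.6 and 92.1 CPM in controls and at 57.5, 107 and 85.9 CPM in knockouts. Knockout 2 was above all controls while knockouts 1 and 3 were below them, for a log2 fold change of -0.23 (SE 0.27, adjusted p = 0.925) that was -0.03 without knockout 1 and -0.45 without knockout 2. Fbl, the methyltransferase itself, was the member with the lowest level per length (1.62 CPM per kilobase of exon in controls) and had a log2 fold change of -0.28 (SE 0.70). Without control 1, its highest sample, the value was 0.23. Of its transcript sequence, 73% in stretches of 50 bases also occurs in transcripts of other genes, so its counts are uncertain.

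The box H/ACA snoRNP genes, whose particles pseudouridylate ribosomal RNA and stabilise telomerase RNA, had the lowest median of the 6 roles, -0.73, with 4 of 5 members negative, the same number as when counts were scaled by library size alone. Without knockout 3 the median was -0.45, with 5 of 5 negative. Nolc1, a nucleolar chaperone of snoRNPs whose promoter is printed above (gene at chr19:46075863-46085530, plus strand), stood at 161, 133 and 168 CPM in controls and at 73.2, 95.1 and 111 CPM in knockouts. Every knockout was below every control, and the mean of the knockouts was 60.4% of that of controls. The log2 fold change was -0.73 (SE 0.24, adjusted p = 0.709). Dkc1, the pseudouridine synthase dyskerin (chrX:75095854-75109777, plus strand), varied little among controls, at 209, 206 and 196 CPM. Knockouts 1 to 3 were at 142, 150 and 55.04 CPM, all below the controls, with knockout 3 far below the other two. The log2 fold change of Dkc1 was -0.81 (SE 0.36, adjusted p = 0.775) and -0.47 without knockout 3. The small core proteins Nhp2 and Gar1 had log2 fold changes of -0.74 (SE 0.43) and -0.38 (SE 0.26), with their lowest values, 11.6 and 52.4 CPM, in knockout 3, and values of -0.45 and -0.17 without it. Nop10, the smallest core protein, went the other way in that sample: it was at 20.8 to 45.1 CPM in controls, 17.1 and 32.1 CPM in knockouts 1 and 2, and 74.3 CPM in knockout 3. Its log2 fold change of 0.37 (SE 0.56) was -0.36 without knockout 3.

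The factors of small subunit assembly, most of them parts of the large processome on nascent precursor RNA, differed little between genotypes. Of 9 members 7 had negative log2 fold changes (median -0.19), a median that was 0.09 without knockout 3 and 0.04 when counts were scaled by library size alone. Wdr43, a processome subunit (chr17:71615895-71659031, plus strand), was very even among controls, at 113, 109.9 and 111 CPM, and stood at 85.7, 105 and 89.7 CPM in knockouts. All knockouts were below all controls, knockout 2 only just, and the log2 fold change was -0.26 (SE 0.20, adjusted p = 0.877). Heatr1, needed for transcription and early cleavage of the precursor, was at 93.0, 106 and 99.5 CPM in controls and 112, 80.0 and 63.3 CPM in knockouts. Knockout 1 was the highest sample and knockout 3 the lowest, for a log2 fold change of -0.22 (SE 0.26) that was 0.0074 when counts were scaled by library size alone. Bms1, a GTPase of the processome, was at 151, 139 and 149 CPM in controls and 157, 168 and 126 CPM in knockouts. Its log2 fold change of 0.04 (SE 0.21) was -0.074 with upper-quartile scaling and -0.047 without knockout 2. The other 6 (Rrp9, Rrp12, Nob1, Utp15, Utp20 and Wdr75) had log2 fold changes from -0.34 to 0.00 and overlapping groups. Utp15 was spread most widely among them: controls were at 38.1 to 46.7 CPM, knockouts 1 and 2 at 50.7 and 40.5 CPM, and knockout 3 at 5.66 CPM from 198 counts. Its log2 fold change of -0.34 (SE 0.67) was 0.17 without knockout 3. With 1 sample left out, signs also turned for Rrp9, Rrp12, Nob1 and Wdr75.

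Large subunit assembly held the largest single difference. Of its 11 members 8 had negative log2 fold changes (median -0.22), or 5 of 11 with a median of 0.02 when counts were scaled by library size alone. With 1 sample left out the median was -0.44 without knockout 2, -0.071 without knockout 3 and -0.012 without control 1. Gnl3, which encodes the nucleolar GTPase nucleostemin that is abundant in stem cells (chr14:31012433-31019152, minus strand), stood at 78.5, 93.2 and 87.8 CPM in controls. Knockouts 1 to 3 were at 30.0, 45.1 and 16.7 CPM, so that the highest knockout was well below the lowest control. The mean of the knockouts was 35.4% of that of controls. edgeR put the log2 fold change at -1.50 (SE 0.38, adjusted p = 0.622), and by litter the difference in log2 CPM was -1.38, -1.05 and -2.39. DESeq2 gave -1.48 with an adjusted p of 0.0361, and over all alternatives the adjusted p of Gnl3 ran from 0.0113 to 1.00 and the log2 fold change from -1.89 to -1.19. Exons of Gnl3 overlap those of Pbrm1 on the other strand. Whether the counting used strand is not given in the sources used here, so reads of the 2 genes in the overlap may not have been told apart. The same limit applies to Dkc1 (Mpp1) and Wdr43 (CT010429.2). It also applies to Polr1a, Nop56, Nhp2, Rrp9, Heatr1, Wdr12, Bop1, Pes1 and Gtpbp4, whose exons overlap another gene on the other strand.

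Nip7, an RNA-binding factor of subunit maturation, was at 33.2, 19.6 and 20.7 CPM in controls and 16.7, 22.8 and 4.998 CPM in knockouts. Its log2 fold change was -0.72 (SE 0.58), -0.30 without knockout 3, -0.44 without control 1 and -1.17 without knockout 2, and knockout 2 was within the range of controls. Gtpbp4, a GTPase of the early large subunit particle, was at 132, 117 and 102 CPM in controls and 128, 177 and 105 CPM in knockouts. Knockout 2 was the highest sample, and the log2 fold change of 0.22 (SE 0.26) was -0.0057 without it. The genes of the 3 proteins of the PeBoW complex, which matures the large subunit, differed in sign in the main fit. Bop1 had a log2 fold change of -0.76 (SE 0.63), Pes1 of 0.11 (SE 0.26) and Wdr12 of 0.31 (SE 0.30). Bop1 was at 53.8 CPM in control 1 and at 8.96 to 20.2 CPM in the other 5 samples. Without control 1 the log2 fold changes of Bop1, Pes1 and Wdr12 were 0.16, 0.11 and 0.38, all positive. The value of Pes1 was -0.046 without knockout 3 and -0.021 with upper-quartile scaling. Wdr12 was at 37.2, 27.2 and 38.0 CPM in controls and 44.1, 34.9 and 48.2 CPM in knockouts, higher within each litter though the groups overlapped. The remaining 5, Nop2, Ppan, Rrs1, Mrto4 and Nop16, had log2 fold changes from -0.73 to -0.08 and overlapping groups. The value of Ppan, -0.08, was 0.27 without control 1 and 0.35 without knockout 3. Among them Nop16 had the lowest count of any member, 25 in knockout 3 (0.714 CPM), against 9.78 to 26.6 CPM in controls.

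Nucleolin and nucleophosmin, abundant nucleolar proteins with roles in rRNA transcription, processing, export and histone chaperoning, were the most highly expressed members and both were lower in every knockout. Ncl (chr1:86344719-86359400, minus strand) stood at 2028, 1799 and 2045 CPM in controls and at 1354, 1701 and 1269 CPM in knockouts. Knockout 2 was just below the lowest control and the other two were well below it. The log2 fold change was -0.44 (SE 0.18, adjusted p = 0.759), and the knockout mean was 73.6% of the control mean. Npm1 (chr11:33152287-33163206, minus strand) was at 991, 774 and 812 CPM in controls and at 559, 688 and 341 CPM in knockouts. Its order of knockouts was the same, with knockout 2 highest and knockout 3 lowest. The log2 fold change was -0.70 (SE 0.27, adjusted p = 0.750) and -0.45 without knockout 3. Together these 2 genes made up 55.4% of the summed CPM of all members in controls and 50.6% in knockouts. Of the sequence of Npm1, 40.9% in stretches of 50 bases also occurs in transcripts of other genes.

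**Figure D4:**
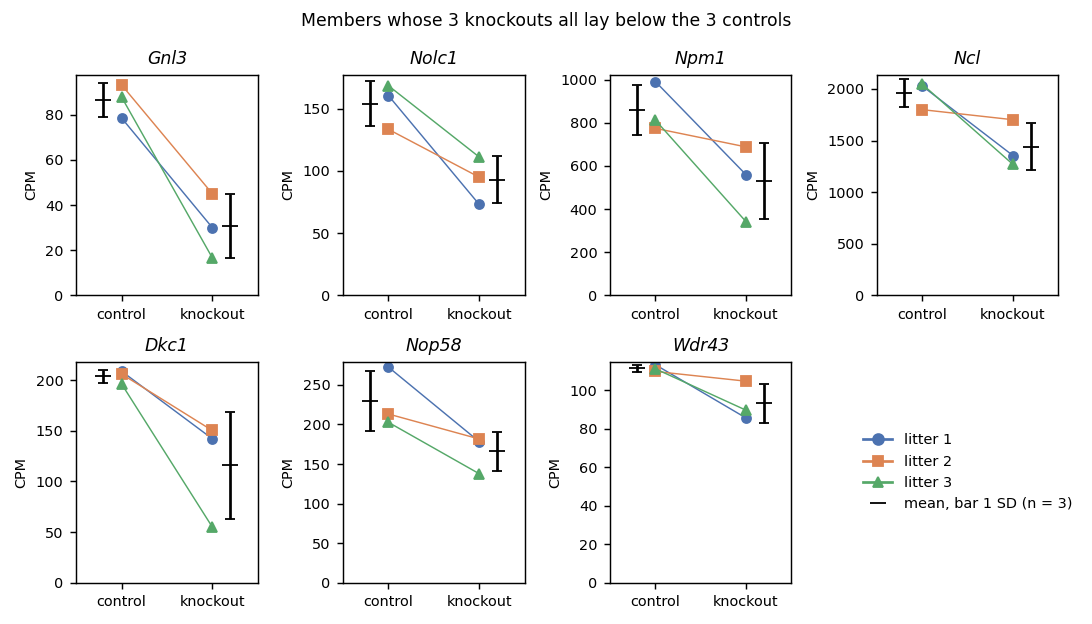
CPM of the 7 members in which all 3 knockouts lay below all 3 controls, 1 panel a gene with an axis from 0; lines join the 2 samples of a litter and the black bars give the mean and 1 SD over 3 samples. Every line slopes down from control to knockout, as it must in members picked in this way. The line of litter 2 (orange squares) is the shallowest in all 7 panels.

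The knockout samples differed among themselves more than the controls did. Summed over all members, controls 1 to 3 reached 5477, 4739 and 5026 CPM, and knockouts 1 to 3 reached 3788, 4593 and 3274 CPM. Without Ncl and Npm1 the controls summed to 2459, 2167 and 2169 CPM and the knockouts to 1875, 2204 and 1664 CPM, so that knockout 2 then lay within the range of the controls. Knockout 3 was the lowest of the 6 samples for 21 members and knockout 1 for 6. Below every control were 17 of the 35 members in knockout 1 (background 28.9% of all genes tested), 11 in knockout 2 (background 35.1%) and 25 in knockout 3 (background 40.9%). Above every control were 7 in knockout 1 (background 29.1%), 9 in knockout 2 (background 29.7%) and 6 in knockout 3 (background 32.7%). Within litters the median difference in log2 CPM over members was -0.58 in litter 1, 0.15 in litter 2 and -0.56 in litter 3. Over all genes tested these medians were 0.02, -0.08 and -0.17. For all 7 members whose groups did not overlap, litter 2 had the smallest difference. Of the 35 members, 26 were lower in the knockout of litter 1 (background 48.9%), 13 in litter 2 (background 52.8%) and 26 in litter 3 (background 54.8%). The SD of log2 CPM over 3 samples had a median of 0.19 among controls and 0.45 among knockouts, was larger among knockouts for 29 members, and had medians of 0.49 and 0.89 over all genes tested. Macrophage genes above all controls numbered 8, 6 and 10 of 11 in knockouts 1, 2 and 3, and 5 in all knockouts, as given above. The part of macrophages in the levels of the members was not tested.

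**Figure D5:**
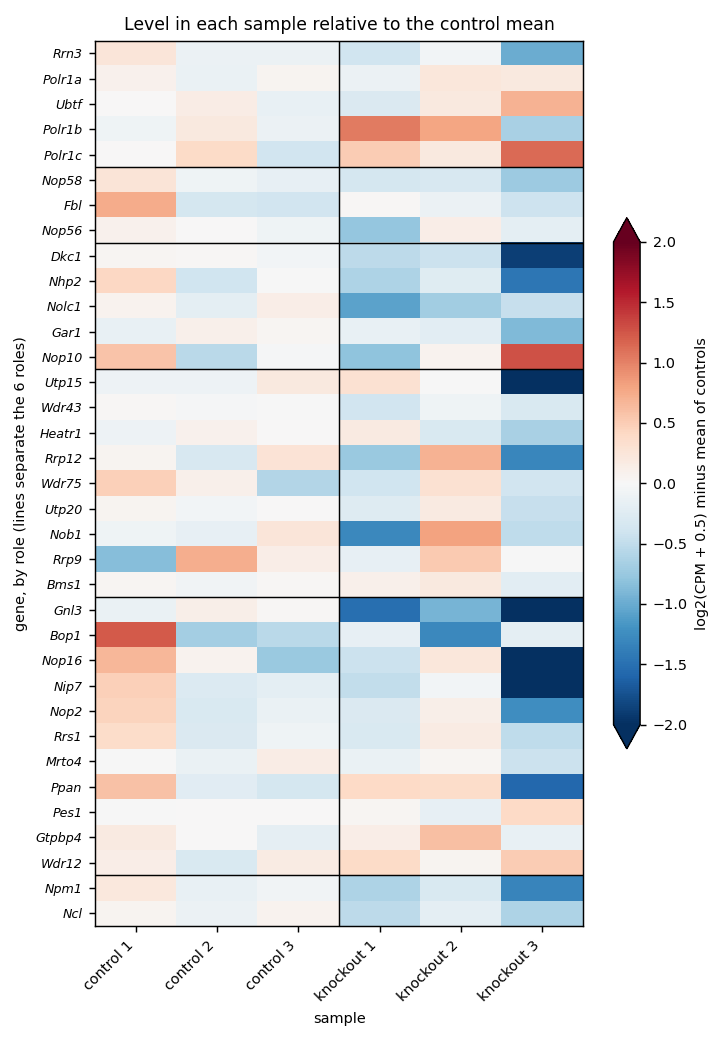
Log2(CPM + 0.5) of each member in each sample minus the mean of the 3 controls, on a scale from -2.0 to 2.0 with values beyond it shown in the end colour; blue is lower, red is higher, and lines separate the 6 roles. The column of knockout 3 is the bluest, and that of knockout 2 is close to the controls for most members.

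Beyond the 35, a wider list of 140 other ribosome biogenesis genes held 139 in the files, all tested, and their fold changes were close to those of all genes. Their median log2 fold change was -0.04, with 79 lower and 60 higher, and it was 0.16 when counts were scaled by library size alone. None passed an adjusted p of 0.05 in edgeR or DESeq2, and 3 were lower (2.16%, background 2.24%) and 3 higher (2.16%, background 4.26%) at an unadjusted p under 0.05. All knockouts were below all controls in 11 (7.91%, background 7.74%) and above them in 6 (4.32%, background 6.39%). By role, the medians were 0.12 for other RNA polymerase I subunits and factors (10 genes), 0.05 for small subunit maturation (47), -0.05 for large subunit assembly and export (50), -0.17 for snoRNP assembly and rRNA modification (17) and -0.21 for rRNA trimming (15).

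The genes of the wider list with an unadjusted p under 0.05 are named here because the rule picks them, and their number is no more than the background. Wdr74, an assembly factor of the large subunit, stood at 58.8, 33.5 and 28.0 CPM in controls and 19.6, 14.52 and 15.8 CPM in knockouts, a log2 fold change of -1.27 (SE 0.40, adjusted p = 0.686). Tex10, part of a complex that removes an internal spacer from the precursor, was at 39.3, 42.0 and 28.7 CPM in controls and 20.2, 20.5 and 9.74 CPM in knockouts (log2 fold change -1.13, SE 0.41). Las1l, the nuclease of that complex, was at 64.6, 54.2 and 55.9 CPM in controls and 41.3, 33.8 and 37.4 CPM in knockouts (log2 fold change -0.63, SE 0.25). In all 3, every knockout was below every control. Ddx54, a helicase, was at 30.9, 25.4 and 28.7 CPM in controls and at 34.4, 71.6 and 91.4 CPM in knockouts, for a log2 fold change of 1.22 (SE 0.38, adjusted p = 0.694). Pak1ip1, of the large subunit, was at 14.3, 11.4 and 12.6 CPM in controls and 29.7, 19.5 and 31.2 CPM in knockouts (log2 fold change 1.07, SE 0.39). The knockouts of these 2 were all above the controls. Esf1, of the small subunit, was at 105, 89.1 and 93.3 CPM in controls and 102, 138 and 258 CPM in knockouts. Knockout 1 was within the range of controls, and the log2 fold change of 0.80 (SE 0.34) was 0.34 without knockout 3.

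Myc, the transcription factor that many of these genes are known to answer to, was not lower in knockouts. It stood at 211, 179 and 211 CPM in controls and at 297, 347 and 209 CPM in knockouts 1 to 3. Knockouts 1 and 2 were above every control and knockout 3 was among them. The log2 fold change was 0.50 (SE 0.24, adjusted p = 0.775). Mycn was at 41.7, 25.9 and 40.4 CPM in controls and at 42.0, 82.3 and 4.68 CPM in knockouts, so that the knockouts held both the highest and the lowest sample. Its log2 fold change of 0.26 (SE 0.80) was -0.36 with the litter as a block and -0.62 without knockout 2. Of 15 proliferation genes listed for comparison, 13 had negative log2 fold changes (background 49.2% of all genes tested). Their median was -0.38, against 0.01 over all genes tested, and none passed the test. In 2 (13.3%, background 7.74%), Mcm6 and Rrm2, all knockouts were below all controls. Mcm6, a subunit of the replicative helicase, was at 204, 193 and 192 CPM in controls and 127, 146 and 113 CPM in knockouts (log2 fold change -0.61, SE 0.20, adjusted p = 0.709). The part of cell division in the levels of the members was not tested.

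Set against transcript length, the members covered a wide range of levels. In controls Npm1 was highest at 322 CPM per kilobase of exon, followed by Ncl at 192, Gar1 at 56.8, Dkc1 at 49.4 and Nolc1 at 38.8, and 22 of the 35 were at 10 or more. Gar1 and Dkc1, which form part of 1 particle, differed little on that scale in controls, while in knockouts they were at 43.5 and 28.1 CPM per kilobase. Length was taken as all exon bases of the gene in GENCODE, so the order depends on isoforms that may not be used in these cells. Other members with much sequence shared with transcripts of other genes in stretches of 50 bases were Nop56 (37.6%), Mrto4 (25.8%) and Pes1 (24.1%), and their counts are uncertain to that degree.

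The promoters of members were richer in CpG by median than the wider sets of promoters compared with them. RefSeq windows of 250 bases before to 50 after a start site were matched by symbol for 30 of the 35 members, 37 windows in all. The median ratio of observed to expected CpG was 0.848 in these windows, against 0.384 over all 32851 windows of the table and 0.588 over the 20150 windows of protein-coding symbols. The median GC content was 59.7%, against 52.7% and 57.0%. Both wider sets also hold genes that did not pass the filter on low counts, whereas all members passed it. No set of tested genes alone was compared, and Ubtf and Wdr12 each have several of the members' windows. The E-box CACGTG, which reads the same on both strands and was searched without other motifs, occurred in 5 windows of 5 members, or 13.5%, against 7.15% of all windows and 8.03% of those of protein-coding symbols. The 5 were Rrn3, Nop2, Utp20, Wdr43 and Pes1. Their log2 fold changes were -0.44, -0.41, -0.16, -0.26 and 0.11, and Wdr43 was the only one whose groups did not overlap. These counts describe letters in a window and not binding.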

How the data were processed

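RNA sequencing of 6 samples was used, 3 per genotype. The deposited values are raw counts, as whole numbers for each gene symbol; the submitters' processing notes name CASAVA 1.8.4, TopHat2, Picard 1.126, HTSeq 0.6.0, DESeq 3.0, bedtools 2.17.0 and the build mm10, with no role or order. The annotation and the strand setting are not given in the sources used here. Each table ends with 5 tallies of reads in no gene (41.0 to 51.0% of all reads), which were left out. The labels describe no molecular tags, and whether PCR copies were removed before counting is not given in the sources used here.

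Genes were filtered with filterByExpr by group (13646 kept), scaled by TMM and tested with edgeR 4.0.16 (quasi-likelihood F test, genotype only, R 4.3.3) with Benjamini-Hochberg adjustment over all genes and a threshold of 0.05. The SE was computed by dividing the absolute log2 fold change by the root of F. Log2 CPM used a prior count of 2. The fits were checked on simulated data with planted changes larger than that of any member. That check does not show how the fits perform for changes of the members' size. DESeq2 1.42.0, limma 3.58.1 (voom), other scalings and filters, and leaving out each sample were among 17 alternatives.

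The labels give each sample's litter, so samples of a number share a litter. Their deviations from the genotype means correlated at -0.02, -0.08 and 0.00 over 13646 genes. Among the knockouts, no control correlated best with that of its own litter. P-values measure the spread between samples of separate litters.

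The members and lists were chosen with earlier results of these data known. Values in every sample are given, in each role, for the 2 members with the smallest unadjusted p, the most abundant member and members whose groups do not overlap, and for up to 4 wider-list genes in each direction with the smallest unadjusted p among those under 0.05. Other members are given by ranges and single values chosen after they were seen. Lengths, overlaps and sequence shared between transcripts come from GENCODE M21 (GRCm38), and promoter windows from RefSeq. Exosc6 of the wider list was not analysed here.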

Additional observations from a re-analysis of the deposited data

How the results depend on the processing

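The 7 members with all knockouts below all controls kept that order under every scaling and filter except library size alone. That scaling left 3 (Nolc1, Gnl3 and Npm1, with 4.05% of all genes). They also kept it with any 1 sample left out, but apart from the new scaling this had to be so and is no check. Leaving out 1 sample gave 7 to 16 such members, the 7 without knockout 3 (12.5% of all genes), 9 without knockout 1 (18.2%) and the 16 without knockout 2 (15.3%), with 11.7 to 12.5% of all genes where a control was left out. The background is thus above the 7.74% of all 6 samples, as fewer samples have to be in order. Their median log2 fold change was -0.45 (without knockout 2) to -0.07 (without knockout 3) with 1 sample left out, and 0.0074 with library size alone, where the wider list was at 0.16 (-0.22 to -0.01 with 1 sample left out). The members' median minus that of all genes was -0.42 to -0.05 over the 17 alternatives. Genes past the threshold numbered 138 with DESeq2, 277 with DESeq2 and a replicate block, 1 with no filter, 1 with at least 10 counts in every sample and 0 with 1 sample left out; members numbered 1 with either DESeq2 fit (Gnl3, -1.48, and -1.59 with the block) and 0 elsewhere. The litter as a replicate block in edgeR put the members' median at -0.27 and that of all genes at -0.12, and changed no call. The members' median minus that of all genes was -0.15 with the block and -0.24 in the main fit. Dpy30 was at -1.94 to -1.31 with 1 sample left out.

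Signs of single members also turned: 8 of 35 with library size alone, 4 with upper-quartile scaling, 3 with quality weights, 1 with at least 10 counts, 7 without knockout 3, 5 without control 1, and 0 to 3 without another sample. The farthest from 0 of these was Bop1 (-0.76, and 0.16 without control 1). Of the genes given in full, Mycn was -0.36 (replicate block), -0.35 (DESeq2 with it), -0.43 (limma-voom) and -0.62 (without knockout 2), Bms1 -0.074 (upper-quartile) and -0.047 (without knockout 2), Heatr1 0.0074 (library size alone), Gtpbp4 -0.0057 (without knockout 2) and Ubtf -0.021 (without knockout 3). With 1 sample left out, the highest values were 0.80 for Mycn, 0.16 for Bms1, 0.39 for Gtpbp4 and 0.46 for Ubtf. The cause was not tested. Over the 6 samples the biological coefficient of variation had a median of 0.348 for members and 0.651 for all genes, and together with 3 samples a genotype it limits what could be called. The lowest member count was 25.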

Other observations

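Several members carry small nucleolar RNAs (snoRNAs) within the span of the gene, and the split below was made after the values were seen, so it is a description. In GENCODE, 7 of the 35 members host an annotated snoRNA on the same strand: Nop56, Nop58, Dkc1, Wdr43, Ppan, Gnl3 and Ncl. In Nop56, Nop58, Ppan, Gnl3 and Ncl, hosted snoRNAs overlap annotated exons of the host. Reads of host and snoRNA may not have been told apart there. All 7 had negative log2 fold changes (median -0.44), and in 5 of them every knockout lay below every control. Of the other 28 members the median was -0.20, and in 2, Nolc1 and Npm1, every knockout lay below every control. Among 187 other protein-coding genes that host a snoRNA and were tested, the median was -0.11, with every knockout below every control in 22 (11.8%) and above in 9 (4.81%), against 7.74% and 6.39% of all genes tested. The snoRNAs themselves are short and mostly without a poly(A) tail, and their levels were not analysed here.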
